A study of Mus musculus with 4 samples.

Results

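Heterotrimeric G proteins and the RGS proteins that switch them off were described here across nuclei of excitatory and inhibitory neurons of the mouse brain. The set holds 50 of the 55487 genes listed, picked by a rule on gene symbols that was set with earlier results of these data known. It holds 14 alpha subunits, 5 beta subunits, 9 gamma subunits, and 22 RGS genes, among which the binding proteins Rgs7bp and Rgs9bp were counted. Gng7 and Rgs9 were kept out of the set, together with the alpha subunits Gnas and Gnal. Their results are given only beside counts of calls, class totals, neighbouring genes or other genes of the G protein cycle. RNA came from nuclei of adult wild-type mouse brain, olfactory bulb excluded, sorted by FACS (fluorescence-activated sorting) into excitatory (2 libraries) and inhibitory (2 libraries) populations. Every library carries the label batch 1. No source used here names the proteins stained for the sort. Separate animals or pools are not named for the replicates either, so the p-values cover the spread among these 4 libraries alone, and that spread may be technical.

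A G protein carries a signal from a membrane receptor into the cell. The alpha subunit binds GTP when a receptor is activated and parts from the beta-gamma dimer, and both then act on enzymes and ion channels. RGS proteins (regulators of G protein signalling) speed up the hydrolysis of GTP by the alpha subunit and so end the signal. In neurons, alpha subunits of the i/o family lower cyclic AMP, and their beta-gamma dimers open potassium channels and close calcium channels. Alpha q activates phospholipase C.

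Values are TPM, transcript abundances scaled to a fixed total and divided by transcript length, so that levels can be compared between genes. TPM keeps no sequencing depth, and the depth of each library is therefore unknown. Differences are given as excitatory minus inhibitory on the log2(TPM + 1) scale with the standard error, a scale that understates the change of low genes. A gene is called where the limma adjusted p was under 0.05, a threshold that, with 2 libraries a group, rests on the model of the variance. In whole populations of nuclei, fewer cells that use a gene and less RNA of it per cell cannot be told apart. The sort was visible in its own markers: 6 of 6 excitatory and 6 of 6 inhibitory marker genes were called toward their own group. Inhibitory markers summed to between 126.5 and 140.5 TPM in excitatory libraries and to between 771.1 and 790.5 TPM in inhibitory ones. Excitatory markers summed to at least 902.8 TPM in excitatory libraries and to between 210.3 and 240.6 TPM in inhibitory ones, so neither population was free of the markers of the other. Slc17a6, a glutamate transporter of excitatory neurons listed here with the thalamic markers, went the other way, at 22.4 and 20.3 against 88.0 and 78.4 TPM, and was called higher in the nuclei labelled inhibitory (adjusted p = 0.00176).

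In all, 41 of the 50 members reached 1 TPM in at least 2 libraries and were tested. Of these, 3 were higher in excitatory nuclei (Rgs6, Rgs7 and Gng12) and 3 were higher in inhibitory nuclei (Rgs8, Rgs10 and Rgs20). That is 14.6% of the members tested, against 12.0% of all 26055 genes tested, so the set as a whole did not stand far from the background. By direction the background was 5.43% toward excitatory and 6.62% toward inhibitory. The calls were unevenly placed: 5 fell among the 17 RGS genes tested and 1 among the 24 G protein subunits tested. Of the genes kept out, the subunits Gnal and Gng7 and the RGS gene Rgs9 were each called higher in inhibitory nuclei, and Gnas was not called. The split thus depends in part on which genes the rule keeps out. The median size of the log2 difference, regardless of sign, was 0.46 for RGS genes and 0.17 for subunits, against 0.30 for all genes tested. Among the tested members, excitatory libraries stood wholly above inhibitory ones for 12 and wholly below for 15, against 23.0% and 33.3% of all genes tested. Rescaling the libraries by median ratios called 5 members toward excitatory and 2 toward inhibitory nuclei, and quantile normalization called 4 and 2. With any 1 library left out, limma called 0 genes, with between 5311 and 5812 at an unadjusted p under 0.05. Between 3 and 6 members toward excitatory and between 4 and 5 toward inhibitory nuclei then had an unadjusted p under 0.05, and all 6 called members kept their direction.

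**Figure D1:**
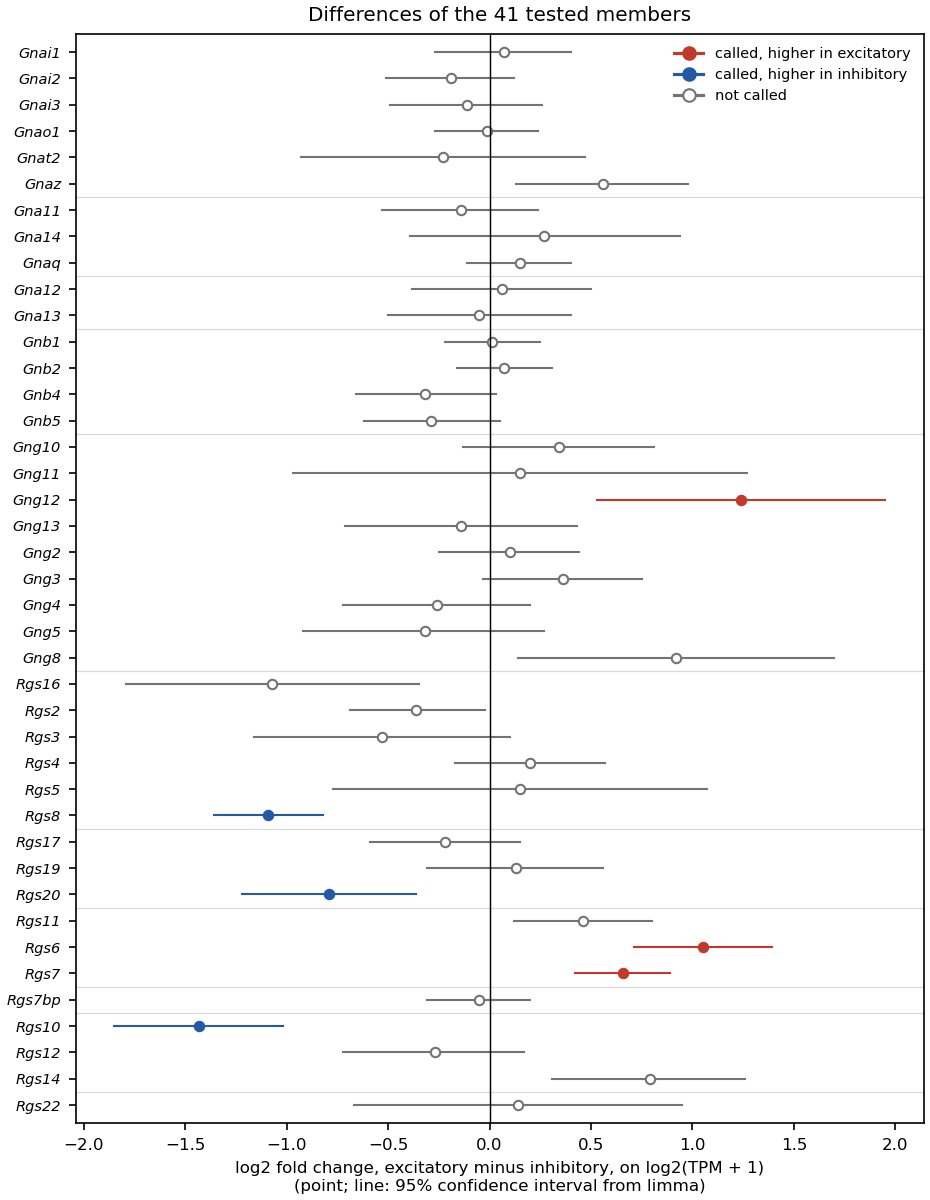
Log2 fold change of the 41 tested members, excitatory minus inhibitory on log2(TPM + 1), with the 95% confidence interval from limma as a line; rows are grouped by family and filled points were called. All tested subunits but Gnaz, Gng8 and Gng12 lie within 0.5 of zero, while Rgs6, Rgs7 and Gng12 lie to the right and Rgs8, Rgs10 and Rgs20 to the left.

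The sequences before the start sites of the 4 RGS genes with the smallest p are shown because these genes moved in opposite directions, with Rgs13, an RGS gene of lymphoid cells, as a member that was near 0 here. Each is the stretch of 250 bases before the RefSeq start (build GRCm38.p6), 5′ to 3′ on the strand of the gene, and capitals mark CpG dinucleotides. Rgs7 (chr1:175492546-175492795, minus strand) and Rgs6 (chr12:82617249-82617498, plus strand) were higher in excitatory nuclei. Rgs8 (chr1:153652787-153653036, plus strand, the first of its 3 listed starts) and Rgs10 (chr7:128418173-128418422, minus strand) were higher in inhibitory nuclei. Rgs13 lies at chr1:144177373-144177622 on the minus strand. In the GENCODE M21 annotation Rgs6 begins at 82588292 and Rgs10 at 128418758. The stretches shown for these genes thus lie inside the annotated gene, before a RefSeq start further along.
Rgs7: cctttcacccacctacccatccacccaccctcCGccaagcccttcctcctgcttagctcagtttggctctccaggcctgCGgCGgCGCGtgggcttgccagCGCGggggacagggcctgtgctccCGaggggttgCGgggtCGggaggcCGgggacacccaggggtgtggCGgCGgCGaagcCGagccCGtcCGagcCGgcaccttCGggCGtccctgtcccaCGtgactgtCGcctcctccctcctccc
Rgs6: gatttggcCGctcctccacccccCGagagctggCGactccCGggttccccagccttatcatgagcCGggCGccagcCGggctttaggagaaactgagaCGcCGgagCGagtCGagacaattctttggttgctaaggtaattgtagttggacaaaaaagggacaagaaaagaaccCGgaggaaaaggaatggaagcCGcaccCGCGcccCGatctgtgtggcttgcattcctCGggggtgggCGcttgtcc
Rgs8: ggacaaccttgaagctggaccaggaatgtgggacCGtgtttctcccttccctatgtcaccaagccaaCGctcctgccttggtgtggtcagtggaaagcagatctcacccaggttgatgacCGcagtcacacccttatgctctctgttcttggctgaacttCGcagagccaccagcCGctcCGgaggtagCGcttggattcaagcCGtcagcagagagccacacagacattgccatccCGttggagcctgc
Rgs10: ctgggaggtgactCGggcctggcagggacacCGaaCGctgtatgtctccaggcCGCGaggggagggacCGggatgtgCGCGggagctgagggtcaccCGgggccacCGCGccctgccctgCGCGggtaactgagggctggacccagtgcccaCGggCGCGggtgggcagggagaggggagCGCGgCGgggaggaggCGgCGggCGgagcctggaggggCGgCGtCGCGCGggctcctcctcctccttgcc
Rgs13: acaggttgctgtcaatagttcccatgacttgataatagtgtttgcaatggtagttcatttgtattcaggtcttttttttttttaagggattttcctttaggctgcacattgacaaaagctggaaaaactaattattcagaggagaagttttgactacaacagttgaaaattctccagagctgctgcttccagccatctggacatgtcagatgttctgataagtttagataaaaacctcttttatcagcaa
These stretches hold 22 CpG in Rgs7, 18 in Rgs6, 9 in Rgs8, 27 in Rgs10 and 0 in Rgs13. Both a gene higher in excitatory nuclei (Rgs7) and a gene higher in inhibitory nuclei (Rgs10) thus had a CpG-rich start. RefSeq start windows of 300 bases, reaching from 250 before each start to 50 after it, were listed for 37 of the 50 members, 46 windows in all. The 42 windows of tested members held a median of 21.5 CpG, the 4 windows of members that were not tested held a median of 3.0, and all 32851 windows of the table held a median of 7.0. The 16657 windows of all genes tested held a median of 18.0, and the 19 windows of tested RGS genes a median of 13 CpG.

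EGR1, the transcription factor the study is concerned with, binds a GC-rich motif, here searched as GCGTGGGCG and as GCGGGGGCG on both strands. GCGTGGGCG was in 0.612% of all start windows and in 1.04% of those of genes tested. Among members it was in 1 window, of the first listed start of Gng12, the gamma subunit higher in excitatory nuclei. A further window of Gng12 (chr6:66896641-66896940) held 0 matches. In the first, the motif is written in its reverse complement, in capitals, across the start itself (chr6:66896382-66896410, plus strand).
Gng12: ccgtgcgcccCGCCCACGCgcgaggggag
GCGGGGGCG was in 2.91% of all windows and in 4.91% of those of genes tested. Among members it was in 1 window, that of Gng5, a gamma subunit that was not called. TGACGTCA, the cyclic AMP response element, was in 1.79% of all windows and in 2.7% of those of genes tested. It was in 0 of the 46 windows of members. A match is a run of letters and does not show binding, and a window without a match says only that these letters are not in it.

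Of 14 alpha subunits, 11 were tested and limma called 0 of them, with 1 at an unadjusted p under 0.05, against 12.0% of all genes called. Of the alpha subunits kept out of the set, Gnal was called higher in inhibitory nuclei and Gnas was not called. Gnao1, the most abundant alpha subunit of the set, stood at 110.5 and 121.1 TPM in excitatory libraries and at 112.7 and 121.0 TPM in inhibitory ones. The groups overlapped, and the log2 difference of -0.01 ± 0.10 had a 95% confidence interval from -0.27 to 0.24. Gnao1 made up between 52.7% and 56.4% of the summed TPM of the i/o and transducin family in every library. The inhibitory subunits followed in the same order in both groups, with Gnai1 (36.9 and 37.8 against 38.9 and 32.5 TPM) above Gnai2 (25.9 and 27.5 against 31.3 and 29.9 TPM) and Gnai3 (16.3 and 16.6 against 17.6 and 18.2 TPM). Inhibitory libraries stood above excitatory ones for Gnai2 and Gnai3, by log2 differences of -0.19 ± 0.13 and -0.11 ± 0.15 that did not pass the test.

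Gnaz, a slow GTP hydrolyser of the same family that resists pertussis toxin, had the smallest p among alpha subunits. It stood at 16.1 and 18.2 TPM in excitatory libraries and at 11.3 TPM in both inhibitory libraries. The groups did not overlap, but the log2 difference of 0.56 ± 0.17 (interval 0.13 to 0.98) missed the threshold with an adjusted p = 0.0993. Groups did not overlap for 56.2% of all genes tested, so separation of 2 libraries from 2 is common in these data. The transducins of photoreceptors and taste cells were near the bottom of the table. Gnat1, the rod transducin, stood at 0.308 and 0.166 TPM with 0 listed for both inhibitory libraries, and Gnat3, the taste subunit gustducin, was listed at 0 in all 4. Gnat2, the cone transducin, was at 1.34 and 1.38 against 1.83 and 1.70 TPM.

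In the q family, Gnaq stood at 68.8 and 70.5 against 60.7 and 64.9 TPM, and Gna11, its close relative, at 29.2 and 37.9 against 35.8 and 37.9 TPM. Excitatory libraries stood above inhibitory ones for Gnaq, by 0.15 ± 0.10 on the log2 scale, and the groups overlapped for Gna11; neither passed the test. Gna14 was low, between 2.49 and 3.44 TPM, and Gna15, a subunit of blood cells, was under 1 TPM in every library. Gna12 (12.2 to 13.9 TPM) and Gna13 (up to 16.2 TPM) overlapped between the groups. Gna12 shares 456 of its 3416 exon bases with Amz1, which runs the opposite way. The libraries were strand-specific per the labels' protocols, but no source used here states if reads were counted by strand, so the value of Gna12 is uncertain.

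Among the members, beta subunits made a larger pool than any alpha or gamma family. Limma gave 0 calls among 4 tested of 5, with 0 at an unadjusted p under 0.05, against 12.0% of all genes called. With so few beta subunits, 0 calls does not set them apart from that share. Their summed level was 331.0 and 363.7 TPM in excitatory libraries and 359.3 and 361.6 TPM in inhibitory ones. Gnb2 led, at 148.1 and 158.5 against 145.1 and 145.8 TPM, followed by Gnb1 at 95.5 and 98.2 against 93.9 and 98.2 TPM. For Gnb1 the log2 difference of 0.01 ± 0.10 had an interval from -0.22 to 0.25, and for Gnb2 0.07 ± 0.09 had an interval from -0.16 to 0.31. In these 4 libraries, Gnb2 stood at 1.49 to 1.61 times the level of Gnb1.

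Gnb5, the divergent beta subunit that pairs with R7 RGS proteins in place of a gamma subunit, stood at 58.2 and 73.4 against 79.0 and 80.8 TPM. Gnb4 stood at 28.4 and 33.4 against 40.9 and 36.4 TPM. Inhibitory libraries were the higher ones for both, but the log2 differences of -0.29 ± 0.14 and -0.32 ± 0.14 did not pass the test (adjusted p = 0.242 and 0.219). Gnb3, a beta subunit of the retina, was under 1 TPM in all 4 libraries.

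**Figure D2:**
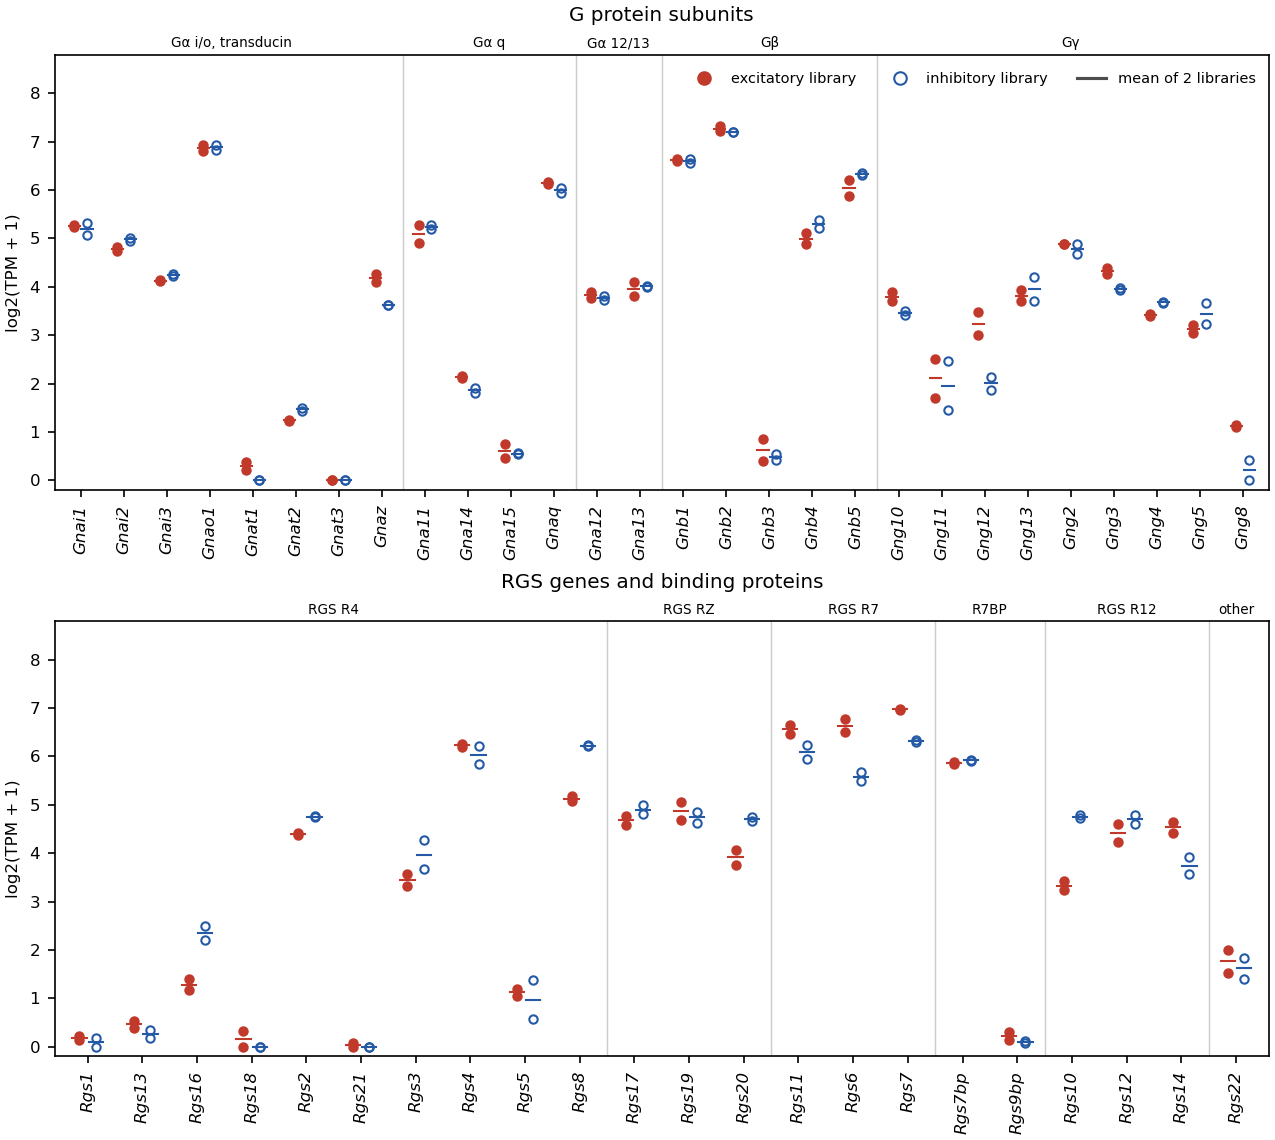
Level of each of the 50 members in each library as log2(TPM + 1), with filled points for the 2 excitatory and open points for the 2 inhibitory libraries and a line at each mean; families are separated by vertical lines. Gnb2, Gnao1 and Rgs7 stand near the top, and the excitatory and inhibitory points part most clearly for Rgs6, Rgs8 and Rgs10 in the lower panel.

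Gamma subunits anchor the dimer to the membrane through a lipid at their C terminus, and all 9 members were tested. Limma called 1 of them, Gng12, higher in excitatory nuclei (chromosome 6, 66896397 to 67021350, plus strand). Over all genes tested, 12.0% were called in either direction and 5.43% toward excitatory nuclei, so 1 call does not set this family apart. Gng12 stood at 10.2 and 7.0 TPM in excitatory and at 3.43 and 2.63 TPM in inhibitory libraries, a 2.84-fold higher mean in excitatory nuclei. The lowest excitatory library thus stood above the highest inhibitory one, and the log2 difference was 1.24 ± 0.29 (adjusted p = 0.0465). The call was narrow: it was lost with a pseudocount of 0.1 (adjusted p = 0.0529), without the filter on low values (0.111) and without a trend in the variance prior (0.0515). Of 2 genes that lie over Gng12 and share no exon base with it, both also stood higher in excitatory libraries and 1 was called. Over all genes tested, 23.0% stood wholly higher in excitatory libraries. Gm15644, 1 of the 2 (5.32 and 4.2 against 0 and 0.931 TPM), reached 1 TPM in excitatory libraries alone, so its direction was built in. Gng12 is also used outside neurons. Astrocyte markers summed to 415.7 and 477.4 TPM in excitatory and to 127.7 and 121.8 TPM in inhibitory libraries, with 1 of 6 called (Slc1a2, at 359.1 and 429.8 against 85.1 and 88.8 TPM) and none at 0 in every library. Oligodendrocyte markers summed to 320.4 to 393.6 and to 243.3 to 333.9 TPM with 0 of 6 called by limma and 0 at an unadjusted p under 0.05, and endothelial markers to 7.11 to 7.96 and to 5.46 to 6.47 TPM. Mural cell markers summed to 11.2 to 12.4 against 15.7 to 15.9 TPM and were mixed in direction. Notch3 (2.33 and 2.68 against 5.66 and 7.71 TPM) stood higher in inhibitory libraries, Cspg4 (3.15 and 2.64 against 1.46 and 0.776 TPM) stood higher in excitatory ones, as Gng12 did, and neither was called. The part of these cells in the difference of Gng12 was not tested.

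Gng2 and Gng3, gamma subunits typical of brain, were the most abundant members of their family on average. Gng2 stood at 28.5 TPM in both excitatory libraries and at 28.7 and 24.5 TPM in inhibitory ones, and the groups overlapped. It shares 897 of its 4390 exon bases with Gm48283 on the other strand, so its value is uncertain. Gng3 stood at 19.9 and 18.1 against 14.3 and 14.8 TPM, a log2 difference of 0.36 ± 0.16 that did not pass the test (adjusted p = 0.212). Gng3 shares 398 of its 1643 exon bases with Bscl2 on the other strand, and Gng13 shares 399 of 773 with Chtf18, which makes both values uncertain. Gng10 (9.71 to 13.8 TPM) shares 946 of 1314 exon bases with the predicted gene Gm20503 on the same strand and is uncertain too.

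The other gamma subunits did not pass the test. Gng4 stood at 9.49 and 9.85 against 11.9 and 11.7 TPM, Gng5 between 7.24 and 11.7 TPM, Gng11 between 1.74 and 4.71 TPM and Gng13 between 12.0 and 17.5 TPM. Gng8, a gamma subunit of olfactory neurons, stood at 1.15 and 1.22 TPM in excitatory libraries, at 0.332 TPM in 1 inhibitory library, and was listed at 0 in the other. It passed the filter through the excitatory libraries alone, so a difference in that direction was built in (log2 difference 0.92 ± 0.32, adjusted p = 0.125). Gng7, kept out of the set, was called higher in inhibitory nuclei (14.6 and 14.8 against 40.7 and 37.5 TPM). With Gng7 counted in, Gng2 held the largest share of gamma subunit TPM in excitatory libraries (23.3% and 24.6%) and Gng7 in inhibitory ones (30.1% and 28.6%). Without it, the 9 members summed to 107.6 and 100.9 against 94.5 and 93.8 TPM, and with it to 122.2 and 115.7 against 135.2 and 131.2 TPM.

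The R7 genes held the highest levels among RGS members in excitatory nuclei. They encode multidomain proteins that pair with Gnb5 and act on alpha subunits of the i/o family. All 3 members stood higher in both excitatory libraries than in either inhibitory one, and 2 passed the test. Over all genes tested, 23.0% stood apart in that direction and 5.43% were called toward excitatory nuclei. Rgs7 (chromosome 1, 175059087 to 175492500, minus strand) stood at 126.0 and 123.6 TPM in excitatory and at 77.7 and 80.0 TPM in inhibitory libraries. The libraries of each group lay close together, and the log2 difference was 0.66 ± 0.09 (adjusted p = 0.0112, 1.58-fold). Only the fit without a trend in the variance prior lost this call among those that used all libraries (adjusted p = 0.0668).

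Rgs6 (chromosome 12, 82588292 to 83162056, plus strand) stood at 89.3 and 107.8 against 50.2 and 43.8 TPM. Its mean was 2.10-fold higher in excitatory nuclei, with a log2 difference of 1.05 ± 0.14 (adjusted p = 0.00832). Rgs6 spans 573.8 kb and holds other listed genes within its introns. Of 6 such entries that share no exon base with it and reached 1 TPM, 5 also stood higher in both excitatory libraries and 3 were called. Over all genes tested, 23.0% stood wholly higher in excitatory libraries and 5.43% were called toward excitatory nuclei. The snoRNA name Gm22149 counts more than once among the 6, with similar values. Nuclear RNA contains unspliced transcripts, and it was not tested how far reads of Rgs6 introns were counted for these 6 entries. Rgs7 and Rgs10 each had 1 such entry, which stood apart in the same direction as its gene and was not called. Rgs11, an R7 gene also known from retina, stood at 87.3 and 99.4 against 60.7 and 74.8 TPM, and its log2 difference of 0.46 ± 0.14 missed the threshold (adjusted p = 0.0897). It passed after median ratio scaling (adjusted p = 0.0391). Rgs11 shares 138 of its 4206 exon bases with Arhgdig on the other strand, a gene that stood at 31.6 and 36.5 against 21.1 and 25.6 TPM.

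Together the 3 members of R7 summed to 302.6 and 330.8 TPM in excitatory and to 188.7 and 198.6 TPM in inhibitory libraries. The order of this total turns when the fourth gene of the family is counted. Rgs9, a regulator typical of striatal neurons and kept out of the set, stood at 46.1 and 50.4 against 318.9 and 388.3 TPM, and with it the family summed to 348.7 and 381.2 against 507.6 and 586.9 TPM. Rgs9 held 13.2% of the family in both excitatory libraries and 62.8% and 66.2% in the inhibitory ones. Rgs7bp, which tethers R7 proteins to the membrane, stood at 56.5 and 57.8 against 58.5 and 60.2 TPM, with an interval of the log2 difference from -0.31 to 0.20. Rgs9bp, its counterpart in photoreceptors, was under 1 TPM in all 4 libraries. Rgs7 stood at 1.69 to 2.16 times the level of Gnb5 in excitatory libraries and at 0.984 to 0.991 times that level in inhibitory ones.

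**Figure D3:**
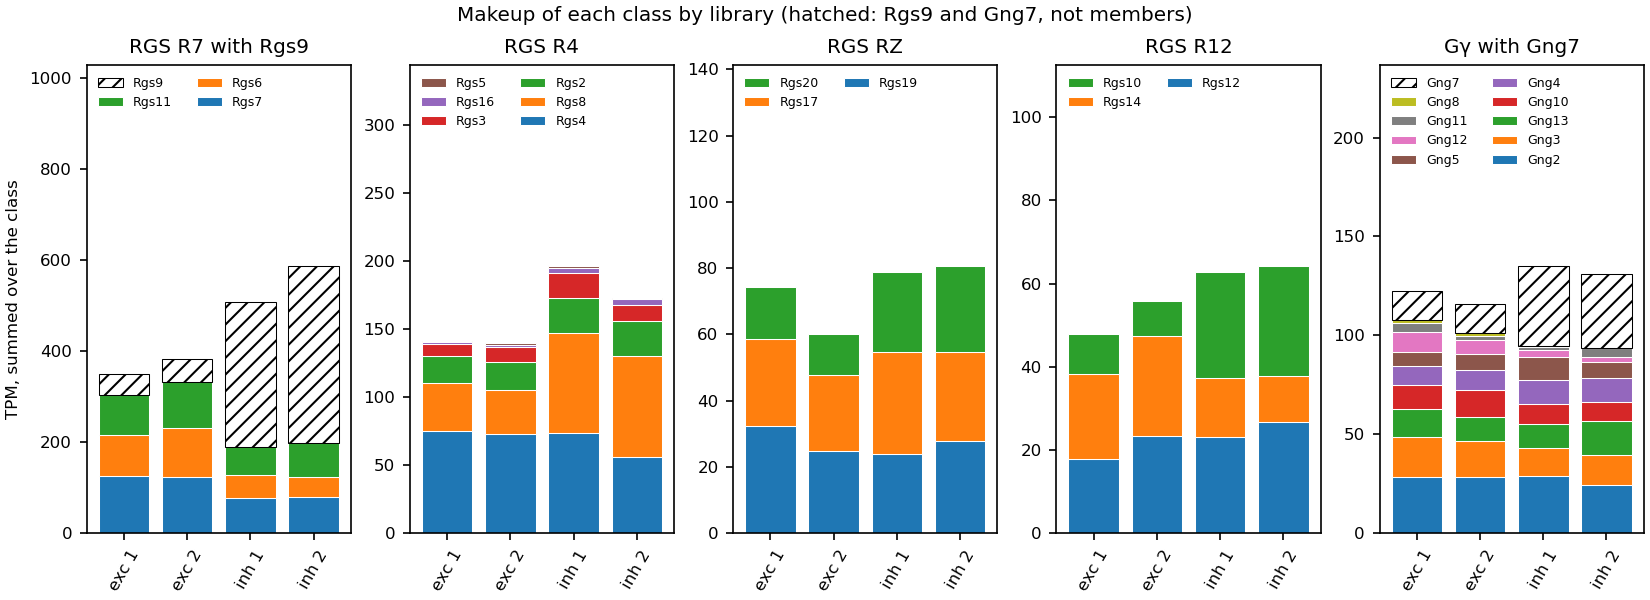
Summed TPM of each family in each library, stacked by gene, for the RGS families and the gamma subunits; hatched bars are Rgs9 and Gng7, which are not members, and RGS R4 genes under the filter are left out. Without the hatched part the R7 bars are taller in excitatory libraries, with it they are taller in inhibitory libraries, and Rgs8 and Rgs10 take larger parts of their bars in inhibitory libraries.

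The R4 family holds the small RGS proteins, which are little more than the catalytic domain. Of 10 members, 6 were tested and 1 was called. The share called over all genes tested was 12.0%, with 6.62% toward inhibitory nuclei. Rgs8 (chromosome 1, 153653025 to 153700323, plus strand), a regulator known from Purkinje cells and striatum, stood at 35.2 and 32.8 TPM in excitatory and at 73.0 and 74.0 TPM in inhibitory libraries. Its mean was 2.16-fold higher in inhibitory nuclei, with a log2 difference of -1.09 ± 0.11 and the smallest adjusted p of the set (0.00436). Rgs8 shares 70 of its 9640 exon bases with the antisense gene Gm29529, which was at 1.43 and 4.76 against 6.58 and 15.9 TPM. Markers of Purkinje cells summed to 316.0 and 328.8 against 563.7 and 621.2 TPM, and markers of striatal projection neurons to 189.3 and 162.7 against 755.7 and 705.3 TPM. All 6 Purkinje and all 8 striatal markers were called higher in inhibitory nuclei, none was at 0 in every library, and their part in the difference of Rgs8 was not tested.

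Rgs4, a regulator abundant in cortex, was the leading R4 gene in excitatory nuclei and did not follow Rgs8. It stood at 75.0 and 72.7 against 73.7 and 56.0 TPM, and the groups overlapped. In excitatory libraries Rgs4 held 52.7% and 51.9% of R4 TPM and Rgs8 24.7% and 23.4%. In inhibitory libraries the shares were 37.5% and 32.3% for Rgs4 and 37.1% and 42.8% for Rgs8, so neither gene led in both. The R4 total was 142.4 and 140.0 TPM in excitatory and 196.6 and 173.1 TPM in inhibitory libraries.

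Rgs2, which prefers alpha q, stood at 19.7 and 20.5 against 26.2 and 25.9 TPM (log2 difference -0.36 ± 0.14, adjusted p = 0.157). Rgs3 stood at 9.06 and 10.8 against 18.4 and 11.7 TPM and did not pass the test (adjusted p = 0.252). Rgs16 was low, at 1.26 and 1.62 against 3.59 and 4.67 TPM, a 2.87-fold higher mean in inhibitory libraries that missed the threshold (log2 difference -1.07 ± 0.29, adjusted p = 0.0709). It was called without a trend in the variance prior (adjusted p = 0.0442). Of its 2339 exon bases, 236 are shared with the antisense gene Gm28513. That gene stood at 0.754 and 1.29 TPM in inhibitory libraries and was listed at 0 in both excitatory ones. Rgs16 is abundant in thalamus, and 6 of 6 thalamic markers tested of 7 were called higher in inhibitory nuclei, with sums of 51.3 and 47.1 against 231.3 and 269.7 TPM and none at 0 in every library. Their part in the level of Rgs16 was not tested. Rgs5, a marker of pericytes, stood between 0.478 and 1.61 TPM and overlapped between groups, with mural cell markers at sums of 11.2 to 12.4 and 15.7 to 15.9 TPM. Rgs1, Rgs13, Rgs18 and Rgs21, regulators of blood or taste cells, stood under 0.5 TPM in every library and were not tested.

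The RZ family acts on Gnaz and other i/o subunits. Of its 3 members, Rgs20 was called (chromosome 1, 4909576 to 5070285, minus strand). The share called over all genes tested was 12.0%, with 6.62% toward inhibitory nuclei. Rgs20 stood at 15.8 and 12.6 TPM in excitatory and at 24.2 and 26.0 TPM in inhibitory libraries, a 1.77-fold higher mean in inhibitory nuclei. The log2 difference was -0.79 ± 0.18 (adjusted p = 0.0394). This call was lost after median ratio scaling (adjusted p = 0.061), after quantile normalization (0.0627), without the filter (0.081) and without a trend in the variance prior (0.0732). Rgs20 shares 127 of 4239 exon bases with Atp6v1h on the other strand, which stood at 125.3 and 135.7 against 155.6 and 135.6 TPM. Of 3 other genes lying over Rgs20 that share no exon base with it, 3 also stood higher in both inhibitory libraries and 1 was called. Over all genes tested, 33.3% stood wholly higher in inhibitory libraries. Gnaz, a target of Rgs20, had its higher values in excitatory libraries, but its difference did not pass the test. Rgs17 (26.4 and 22.9 against 30.9 and 26.9 TPM) and Rgs19 (32.2 and 24.7 against 23.8 and 27.8 TPM) were not called.

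Of the 3 members of the R12 family, Rgs10 was called. The share called over all genes tested was 12.0%, with 6.62% toward inhibitory nuclei. Rgs10 (chromosome 7, 128373621 to 128418758, minus strand), a small regulator of i/o subunits found in neurons and microglia, stood at 9.69 and 8.40 TPM in excitatory and at 25.5 and 26.6 TPM in inhibitory libraries. The mean was 2.88-fold higher in inhibitory nuclei, the largest log2 difference among called members (-1.43 ± 0.17, adjusted p = 0.00636). Microglia markers were measured beside it. They summed to 40.8 and 37.6 against 53.0 and 39.9 TPM, limma called 0 of 6, with 0 at an unadjusted p under 0.05, and none was at 0 in every library. P2ry12 (17.6 and 18.5 against 24.1 and 21.3 TPM) and Csf1r (6.49 and 5.39 against 8.5 and 8.03 TPM) stood higher in both inhibitory libraries, as Rgs10 did. The other microglia markers overlapped between groups. The part of microglia in the difference of Rgs10 was not tested.

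Rgs14, a scaffold with Ras-binding domains known from the CA2 field of the hippocampus, stood at 20.5 and 24.0 against 14.1 and 10.9 TPM. The groups did not overlap, but the log2 difference of 0.79 ± 0.20 missed the threshold by a little (adjusted p = 0.0532). It passed under 4 alternatives, among them median ratio scaling and quantile normalization. Rgs12 stood at 17.8 and 23.4 against 23.2 and 26.8 TPM and overlapped. Rgs14 stood at 2.11 and 2.86 times the level of Rgs10 in excitatory libraries, whereas it stood at 0.553 and 0.410 times that level in inhibitory ones. Rgs22, a large RGS protein of testis outside these families, stood between 1.65 and 2.98 TPM.

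Many members lie beside a relative on the chromosome, and several such neighbours stood at very different levels. Gnai2 and Gnat1 are 39.1 kb apart on chromosome 9, Gnai3 and Gnat2 5.85 kb apart on chromosome 3, and Gnai1 and Gnat3 245.3 kb apart on chromosome 5. In each pair the Gnai gene stood at 16.3 TPM or more in all 4 libraries and the transducin gene at 1.83 TPM or less. Gna11 and Gna15, 4.5 kb apart on chromosome 10, and Gnaq and Gna14, 48.3 kb apart on chromosome 19, were parted in the same way. Rgs4 and Rgs5, 45.7 kb apart on chromosome 1, stood at 56.0 TPM or more and at 1.61 TPM or less.

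Rgs8 and Rgs16 lie 40.0 kb apart on chromosome 1 in the same orientation with no protein-coding gene between them, and both stood higher in both inhibitory libraries, though only Rgs8 was called. The next RGS-like gene, Rgsl1, lies 33.9 kb beyond Rgs16 on the other strand. Rgsl1, which is not a member and was picked out after its values were seen, was called the opposite way, at 9.61 and 13.7 against 3.01 and 3.03 TPM (log2 difference 1.64 ± 0.27, adjusted p = 0.0165). Gna13 lies 64.7 kb from Rgs9 on chromosome 11 and overlapped between groups, whereas Rgs9 differed by -2.84 ± 0.13 on the log2 scale. A run of 5 RGS genes on chromosome 1 (Rgs2, Rgs13, Rgs1, Rgs21 and Rgs18) held 1 gene above 0.5 TPM, Rgs2.

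**Figure D4:**
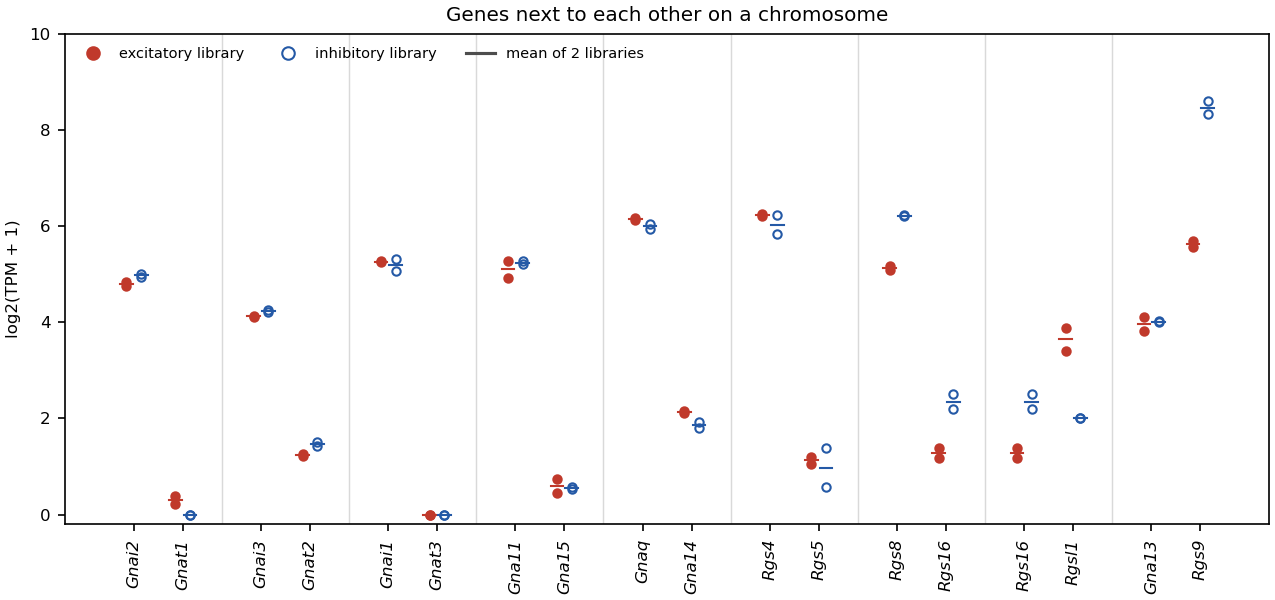
Levels as log2(TPM + 1) of genes that lie next to each other on a chromosome, with filled points for excitatory and open points for inhibitory libraries; lines separate the pairs, and Rgsl1 and Rgs9 are not members. In the 5 alpha subunit pairs 1 gene is high and the other is near the bottom in both groups, while Rgs8 and Rgs16 both stand higher in inhibitory libraries and Rgsl1 stands higher in excitatory ones.

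Other genes of the G protein cycle, a list of 39 names of which 37 were in the table and 33 tested, were called toward inhibitory nuclei in 10 cases and toward excitatory nuclei in 0 by limma, with 12 and 2 at an unadjusted p under 0.05. Over all genes tested the shares were 6.62% and 5.43%. All 8 striatal and all 6 Purkinje markers were called toward inhibitory nuclei as well, Pcp2 is on both the Purkinje list and this one, and the part of those cells in the 10 calls was not tested. The median log2 difference of the 33 tested genes of this cycle list was -0.09, against -0.07 for all genes tested. The 6 with the smallest p were Rgs9, Gnal, Pcp2, Plcb4, Gng7 and Ric8b. Gnal, the stimulatory alpha subunit of striatum, stood at 75.2 and 72.2 against 185.1 and 184.4 TPM, and Ric8b, its chaperone, at 57.3 and 60.6 against 101.6 and 99.8 TPM. Pcp2, a Purkinje cell protein that binds alpha subunits of the i/o family, stood at 15.6 and 13.2 against 53.3 and 70.1 TPM. Plcb4, a phospholipase C target of alpha q, stood at 80.4 and 84.9 against 164.9 and 167.5 TPM, whereas its relative Plcb1 stood at 232.4 and 237.5 against 191.5 and 190.5 TPM and missed the threshold (adjusted p = 0.0908). The remaining calls were Plcb3, Gpsm1, Grk5 and Snx25, with log2 differences from -1.50 to -0.52. Gnas, the stimulatory alpha subunit of most cells, stood at 210.7 and 141.5 against 253.7 and 251.7 TPM and was not called (adjusted p = 0.122).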

How the data were processed

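The 4 libraries of sorted nuclei were analysed from a deposited table of TPM values, which the authors had scaled to a fixed total per library; columns summed to between 999833 and 999891. Per the submitters' processing notes, fastp 0.23.4, HISAT2 2.2.1, Bowtie2 2.3.5, StringTie 2.2.1 and build mm10 were used. No source used here states their roles, the annotation or whether strand entered the counting. Sample titles gave each group and replicate number. Across genes, libraries of the same group correlated at 0.967 and 0.968 and those of different groups at 0.916 to 0.923. Replicates were not copies, with 89 and 93 genes at identical values.

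Genes reaching 1 TPM in 2 libraries or more (26055) were compared on log2(TPM + 1) with limma 3.58.1 in R 4.3.3. The variance prior followed a trend and was worth 4.04 degrees of freedom beside the 2 residual ones. Tests were two-sided, with Benjamini-Hochberg adjustment over all genes tested. For 1 gene alone, an exact permutation of 2 against 2 could give no p under 0.333. The fit was tested on simulated data: few unchanged genes were called where gene variances were drawn from limma's own prior, but the share of false calls exceeded the threshold where variances were held at the shrunken estimates, so control of false calls with 2 libraries a group rests on the variance model. The alternatives tried were a pseudocount of 0.1, no filter, a filter at 5 TPM, both rescalings, no variance trend, a replicate block and each library left out. Positions and overlaps came from GENCODE M21 (50 of 50 members matched) and start sequences from RefSeq GRCm38.p6. By rule, every called member, every member with a mean of at least 20 TPM and all alpha and beta subunits were named. Gng3, Gng4, Gng8, Rgs3, Rgs14, Rgs16, Plcb1, Gnas and the remaining calls of the cycle list were singled out after their values were seen. The members, lists and rules were chosen with earlier results of these data known. Plots used matplotlib 3.10.9 (Python 3.11.15).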

Additional observations from a re-analysis of the deposited data

How the results depend on the processing

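Of 11 alternatives, 7 used all libraries. Rgs6, Rgs8 and Rgs10 were called under all 7, and all 6 called members kept their direction under all 11. Of the 35 members tested and not called, 22 kept their direction under every alternative. Without a filter, 666 genes of the whole table were called toward excitatory and 740 toward inhibitory nuclei, against 1414 and 1725 with it; 37740 genes were then tested. Members called toward excitatory nuclei numbered 5 after median ratio scaling and 1 without a variance trend, against 3; the cause was not tested. With any 1 library left out, both counts of genes and both counts of members were 0 to 0, on 1 residual degree of freedom, with the lone library assumed to vary like the other group. The log2 differences then ranged from 0.92 to 1.18 for Rgs6, from 0.63 to 0.68 for Rgs7, from -1.14 to -1.04 for Rgs8, from -1.53 to -1.34 for Rgs10, from -0.94 to -0.63 for Rgs20 and from 1.00 to 1.48 for Gng12.

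With the replicate number as a block, 5 members were called toward excitatory and 3 toward inhibitory nuclei, and 1946 and 2382 genes in all; Rgs11 (adjusted p = 0.0207) and Rgs14 (0.0478) were the members gained. The deviations of libraries with the same number correlated at 0.0957, over 2 numbers, so the numbers were not taken to pair the samples. TPM keeps no depth, so what depth limits could not be given; 9 of the 50 members stood at or under 0.808 TPM in every library and were not tested.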
